A study of Homo sapiens with 10 samples.

Results

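A set of 8 transcription factors that build and hold hepatocyte identity were followed in SNU398 cells, a line established from a human hepatocellular carcinoma: HNF4A, FOXA1, FOXA2, FOXA3, CEBPA, CEBPB, ONECUT1 and PROX1. They were chosen by name, and all 8 were present among the 56303 rows of the gene count tables. RNA came from cells collected 72 hours after they received shRNA to SALL4 (SALL4KD, 2 libraries) or scrambled shRNA (scramble, 2 libraries), and the labels name no other treatment for either group. SALL4 binding was mapped in SNU398 nuclei by CUT&RUN, in which an antibody brings a nuclease to the bound chromatin (3 libraries), and the 3 libraries made with rabbit IgG are not analysed here. The labels name no selection of transduced cells and do not say whether replicates were separate cultures, so a p-value here weighs a difference only against the scatter among these libraries, and that scatter may be technical.

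In the liver these factors act as a mutually reinforcing network. FOXA proteins are forkhead factors that open silent chromatin in foregut endoderm. HNF4A is a nuclear receptor on which most hepatocyte genes depend, CEBPA and CEBPB are basic leucine zipper factors of metabolic and acute phase genes, ONECUT1 (HNF6) is a cut-homeodomain factor of hepatoblasts, and PROX1 is a homeodomain factor of early hepatoblasts. SALL4 is a zinc finger factor of fetal liver that is silent in adult hepatocytes.

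The promoters shown here are those of the factor that rose in SALL4KD (FOXA1), of the factor with a SALL4 CUT&RUN peak between its start and that of a divergent transcript (CEBPA), and of FOXA3 for comparison with FOXA1. Each is the 250 bases before the transcription start, 5′ to 3′ on the strand of the gene, from the RefSeq promoter table (GRCh38.p14, the same assembly as hg38). Capitals mark a forkhead word in FOXA1 (TGTTTNC on the other strand), the bases under the peak of CUT&RUN library 3 in CEBPA, and a TATAAA word in FOXA3.
FOXA1, chr14:37595250-37595499, minus strand: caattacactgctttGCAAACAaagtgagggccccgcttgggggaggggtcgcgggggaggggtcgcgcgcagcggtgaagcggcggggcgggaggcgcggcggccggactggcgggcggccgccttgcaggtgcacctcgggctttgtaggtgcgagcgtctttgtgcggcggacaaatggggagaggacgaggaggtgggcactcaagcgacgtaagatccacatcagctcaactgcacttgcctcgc
CEBPA, chr19:33302535-33302784, minus strand: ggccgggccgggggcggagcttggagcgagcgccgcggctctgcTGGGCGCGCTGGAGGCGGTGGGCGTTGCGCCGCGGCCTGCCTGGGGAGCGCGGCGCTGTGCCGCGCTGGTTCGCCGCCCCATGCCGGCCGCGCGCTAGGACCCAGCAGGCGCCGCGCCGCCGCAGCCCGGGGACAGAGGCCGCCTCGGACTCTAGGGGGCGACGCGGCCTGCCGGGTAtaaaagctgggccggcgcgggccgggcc
FOXA3, chr19:45864076-45864325, plus strand: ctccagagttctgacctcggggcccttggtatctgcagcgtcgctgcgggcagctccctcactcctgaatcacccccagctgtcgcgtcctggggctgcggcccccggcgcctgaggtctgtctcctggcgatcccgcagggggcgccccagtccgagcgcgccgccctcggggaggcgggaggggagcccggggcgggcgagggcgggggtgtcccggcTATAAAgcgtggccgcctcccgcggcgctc

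The table matched 6 of the 8 factors with 8 windows of 300 bases (250 before to 50 after a start), since HNF4A and CEBPB have 2 starts each; FOXA2 and PROX1 had no entry. The windows of FOXA1, FOXA3, CEBPA, CEBPB and ONECUT1 were poor in A and T, with 30.7%, 23.7%, 19.3%, 23.0% and 23.3% (the 2 CEBPB windows) and 25.0%, against a median of 41.3% over 35116 promoters. The 2 windows of HNF4A, at 40.0% and 42.3%, lay near that median. The study's title names an AT-rich motif for SALL4. The short AT-rich word AATAT, picked as an example and counted on both strands, was in none of the 8 windows and in 23.0% of all promoters. TGTTTNC was in FOXA1 alone of these windows and in 18.0% of all promoters. TATAAA was in the windows of CEBPA, FOXA3 and the second CEBPB start, beginning 30, 30 and 29 bases before the start, and in 11.5% of all promoters. CCAAT was in 1 HNF4A window, both CEBPB windows and ONECUT1, and in 34.6% of all promoters. The 2 CEBPB windows overlap at chr20:50190580-50190632, and their CCAAT is the same site in that stretch. Each of the stretches printed held only 1 site of these words, so no overlap of words could occur there. TGTTTNC and TATAAA were chosen after the sequences had been seen, and a match describes letters, not binding.

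SALL4, the target of the hairpin, had 21.6 and 18.7 CPM (counts relative to the TMM-scaled library size) in the SALL4KD libraries and 74.5 and 58.7 CPM in the scramble libraries, a log2 change of -1.72 with an SE of 0.19 (edgeR quasi-likelihood, adjusted p = 5.84e-06). Libraries held 158934493 to 225624957 counts. Of 25807 genes tested, 2.31% were called higher and 3.25% lower in SALL4KD at an adjusted p under 0.05, which is 5.55% in all. CPM is not divided by gene length, so levels are compared between libraries, and an order of genes by CPM is one of reads and not of transcripts. In bulk RNA, fewer cells with a transcript and less of it per cell cannot be told apart.

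FOXA1 rose and no other factor of the 8 was called. Of the 8 factors, 5 had enough counts to be tested, and 1 of these 5 was called higher and none lower (2 had an unadjusted p under 0.05, as did 18.1% of all genes tested). DESeq2, the combined count matrix described with HNF4A, and edgeR with no filter on low counts also called FOXA1 alone, where they called 9.84%, 5.26% and 4.6% of all genes. FOXA3 had lower values in SALL4KD without passing the test, CEBPA, CEBPB and ONECUT1 did not pass, and HNF4A, FOXA2 and PROX1 were close to the limit of detection. The groups did not overlap for 2 of the 5 tested factors in the higher direction and 1 in the lower, while 24.2% and 22.9% of all tested genes were separated in these ways.

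FOXA1 (chromosome 14, 37589552 to 37595249, hg38), the forkhead factor that opens chromatin ahead of other liver factors, had 15111 and 17573 counts in SALL4KD (replicates 1 and 2), and scramble (replicates 1 and 2) had 8019 and 6201. In CPM this is 75.2 and 80.6 in SALL4KD and 40.8 and 39.0 in scramble. Both SALL4KD libraries lay far above both scramble libraries, and the distance between the groups was much larger than that within them. The mean was 77.9 ± 3.85 CPM in SALL4KD against 39.9 ± 1.29 CPM in scramble (SD, n = 2 each), 1.95-fold higher, a log2 change of 0.96 with an SE of 0.18 (edgeR adjusted p = 0.00158). Under every alternative of library, scaling, filter, count table, replicate term and tool FOXA1 was called higher, at log2 fold changes of 0.90 to 1.02 when 1 library was left out. The authors' deposited table, which by its name rests on 3 libraries per group and in which 37.0% of 15141 genes pass an adjusted p of 0.05, lists FOXA1 at 0.92 on the log2 scale (its adjusted p, 7.69e-06).

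FOXA3 (chromosome 19, 45864326 to 45873797), the forkhead paralog that is most active in the mature liver and gut, had 74 and 109 counts in the SALL4KD libraries, and 155 and 163 in the scramble libraries. Its CPM was 0.368 and 0.500 in SALL4KD and 0.789 and 1.03 in scramble, so that the groups did not overlap. The log2 change was -1.06 with an SE of 0.36 (edgeR adjusted p = 0.0831), short of the threshold, and DESeq2 gave an adjusted p of 0.0586. The authors' deposited table lists it at -1.06 with an adjusted p of 0.0193. FOXA2 (chromosome 20, 22580998 to 22585490), which acts with FOXA1 in the endoderm, had 6, 6, 4 and 1 counts in SALL4KD replicates 1 and 2 and scramble replicates 1 and 2, or 0.00629 to 0.0299 CPM, and was not tested. LINC00261, the long noncoding gene beside FOXA2, had no count in 3 libraries and 6 in scramble replicate 2. In the other 3, no count allows up to 0.0138 to 0.0153 CPM (3 counts).

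Within each library the FOXA family thus consisted of FOXA1 reads nearly throughout. FOXA1 held 99.5% and 99.3% of the summed FOXA counts in the SALL4KD libraries and 98.1% and 97.4% in the scramble libraries. FOXA3 held 0.487% and 0.616% in SALL4KD and 1.90% and 2.56% in scramble. These shares need no scaling between libraries. Since FOXA1 makes up nearly all of the sum and rose, the FOXA3 share falls even with FOXA3 itself unchanged, so the separation of the groups in this share adds nothing on FOXA3 alone. The exact permutation test (two-sided) of the FOXA3 share gave p = 0.333, which is the smallest that 2 against 2 libraries can give.

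**Figure D1:**
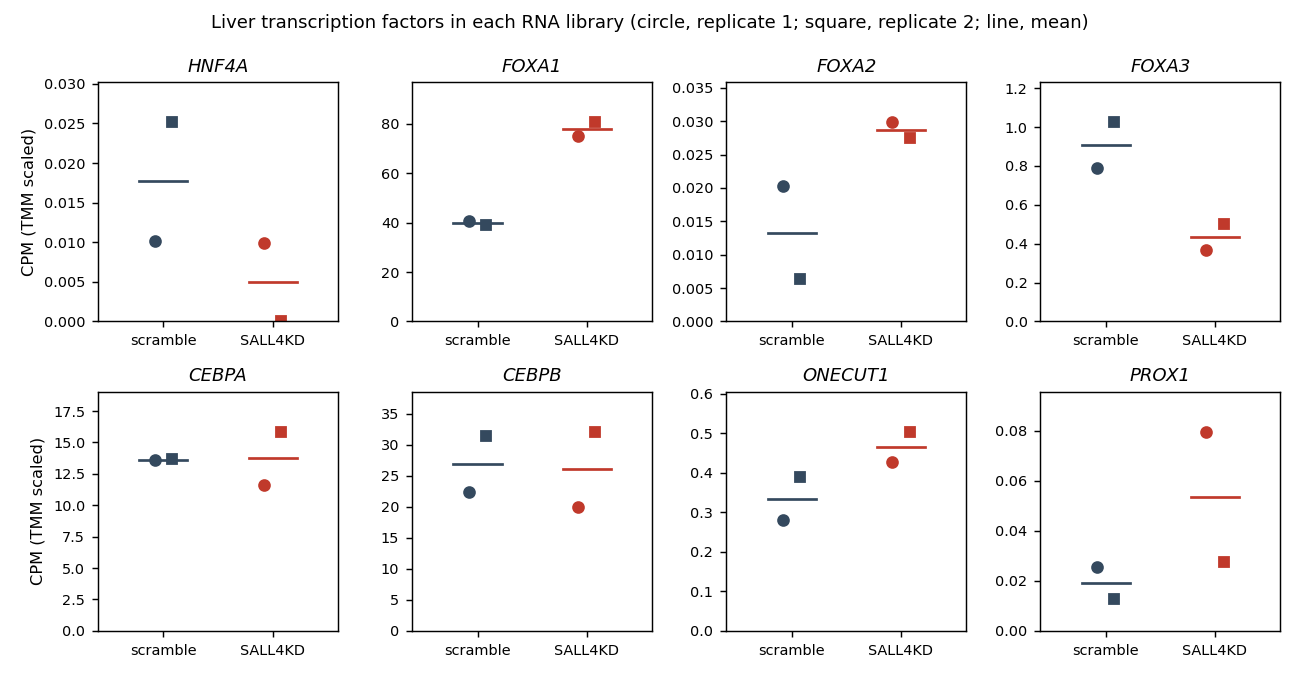
Each panel plots CPM (linear axis from 0, with its own scale) in the 2 scramble and 2 SALL4KD libraries, with circles for replicate 1, squares for replicate 2 and lines for means. FOXA1 is near 40 in scramble and near 80 in SALL4KD, FOXA3 is lower in SALL4KD, CEBPA and CEBPB overlap, and HNF4A, FOXA2 and PROX1 stay under 0.1 CPM.

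CEBPA (chromosome 19, 33299934 to 33302534), the leucine zipper factor of the quiescent adult hepatocyte, had 11.6 and 15.9 CPM in the SALL4KD libraries, while both scramble libraries had 13.6 CPM (2677 and 2170 counts). The scramble libraries lay between the SALL4KD libraries. The log2 change was 0.01 with an SE of 0.21 (edgeR adjusted p = 0.990). The divergent noncoding gene that starts beside CEBPA, listed as CEBPA-AS1 and now named CEBPA-DT, had 23.2 and 28.4 CPM in SALL4KD and 20.5 and 20.6 CPM in scramble, a log2 change of 0.33 with an SE of 0.19 (edgeR adjusted p = 0.399).

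CEBPB (chromosome 20, 50190583 to 50192690), the leucine zipper factor of the acute phase response, had 4022 and 7000 counts in SALL4KD replicates 1 and 2 and 4387 and 5004 in scramble, or means of 26.1 ± 8.56 and 26.9 ± 6.46 CPM (SD, n = 2 each). In CPM both replicate 2 libraries were above both replicate 1 libraries, so the spread within groups was larger than the difference between them. The log2 change was -0.05 with an SE of 0.24 (edgeR adjusted p = 0.961), and it turned to 0.26 without SALL4KD replicate 1 and to 0.23 without scramble replicate 2.

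CEBPB-AS1, an antisense gene whose span overlaps that of CEBPB, rose. It had 2.05 and 2.08 CPM in SALL4KD (replicates 1 and 2), and scramble (replicates 1 and 2) had 0.881 and 0.937 CPM, a log2 change of 1.18 with an SE of 0.29 (edgeR adjusted p = 0.0161). Its share of the summed counts of CEBPB and CEBPB-AS1 was 9.29% and 6.09% in SALL4KD and 3.79% and 2.89% in scramble. The strand setting of the counting is not given in the sources used here, so reads of the 2 genes cannot be told apart with certainty. The call was lost without SALL4KD replicate 2 (adjusted p = 0.0553), without scramble replicate 1 (0.0909) and without scramble replicate 2 (0.0775), while the log2 change stayed between 1.14 and 1.24.

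ONECUT1 (chromosome 15, 52755053 to 52790336), which switches on HNF4A in the fetal liver, had 86 and 110 counts in the SALL4KD libraries, and the scramble libraries had 55 and 62, or 0.428 and 0.505 CPM against 0.280 and 0.390 CPM. The SALL4KD libraries were higher, but the log2 fold change of 0.48 (SE 0.40) had an edgeR adjusted p of 0.597. Its paralog ONECUT2 had 9.13 and 9.80 CPM in SALL4KD and 5.41 and 6.23 CPM in scramble, a log2 change of 0.70 with an SE of 0.22 (edgeR adjusted p = 0.0634); DESeq2 gave an adjusted p of 0.0171. Of 32 other liver factors tested, ONECUT2 had the pattern nearest to that of FOXA1 over the 4 libraries (Euclidean distance of centred log2 CPM 0.32), followed by HLF (0.40) and NR2F1 (0.43). With 4 libraries this measure says little beyond a shared direction.

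HNF4A (chromosome 20, 44355699 to 44434596), the central nuclear receptor of the hepatocyte, had 2 and 0 counts in SALL4KD (replicates 1 and 2), and scramble (replicates 1 and 2) had 2 and 4. The count of 0 allows up to 0.0138 CPM, and intervals of this kind cover counting error only. The antisense gene HNF4A-AS1 had 2 counts in scramble replicate 2 and none in the other libraries. The combined matrix is a second deposited count table with a column for each of these 4 libraries. In it HNF4A had 3, 1, 0 and 2 counts in the same order of libraries. HNF4A-AS1 had 7, 3, 0 and 1 counts there, so the tables differ in its direction at these low counts. The HNF4A transcript was thus near absent in both groups, and no difference could be seen at this depth. Its paralog HNF4G, singled out after its values were seen, had 3498 and 3777 counts in SALL4KD and 2893 and 2232 in scramble, or means of 17.4 and 14.4 CPM, a log2 change of 0.27 with an SE of 0.20 (edgeR adjusted p = 0.524).

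PROX1 (chromosome 1, 213983151 to 214041510) had 16 and 6 counts in SALL4KD (replicates 1 and 2), and scramble (replicates 1 and 2) had 5 and 2, or 0.0126 to 0.0796 CPM, and was not tested. With no filter on low counts its log2 change was 1.45 with an SE of 1.12 (edgeR adjusted p = 0.724). In the combined matrix the 4 counts were 5, 2, 2 and 1. PROX1-AS1 had 2 counts in each replicate 2 library and none in the others.

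**Figure D2:**
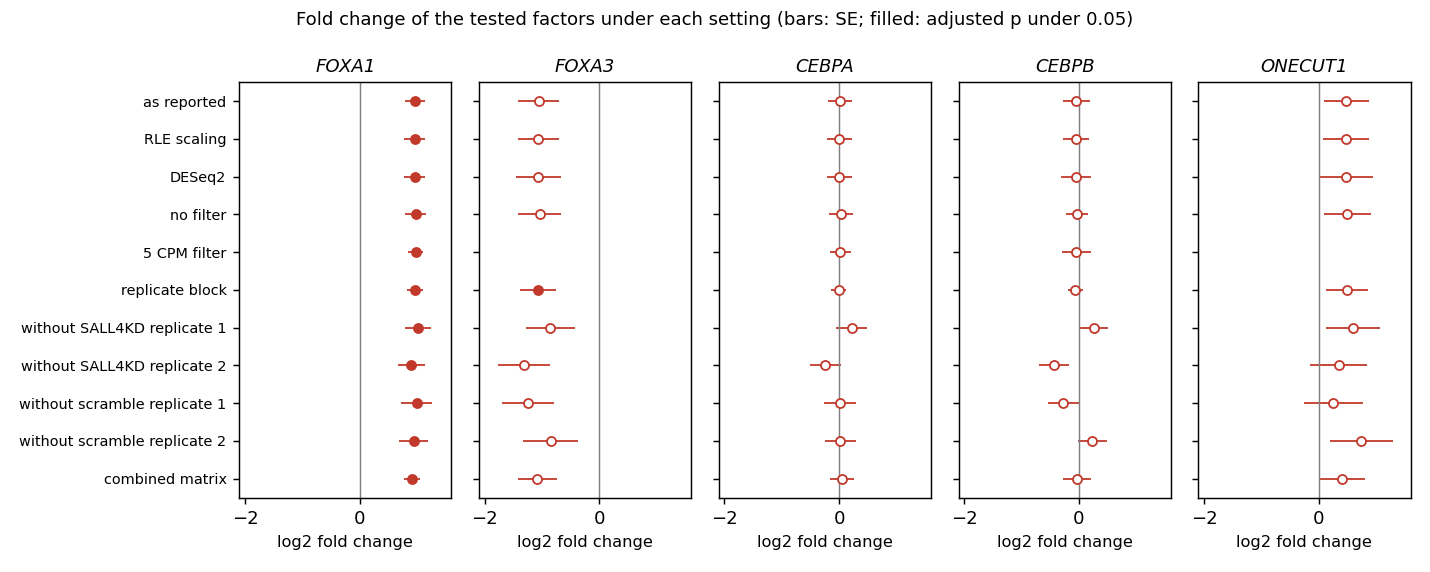
The log2 fold change (SALL4KD over scramble, with SE) of the 5 tested factors is plotted for the reported fit and each alternative, with filled points for an adjusted p under 0.05. FOXA1 is filled and near 1 throughout, FOXA3 is negative throughout but filled only with the replicate block, and CEBPA and CEBPB change sign; FOXA3 and ONECUT1 have no point with the 5 CPM filter, which removes them.

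Other liver-enriched transcription factors were read from a list of 34, of which 32 were tested. In it 2 rose and 1 fell, against 2.31% and 3.25% of all genes, and 9 of 32 had an unadjusted p under 0.05, against 18.1% of all genes. The median log2 fold change was -0.0045, beside 0.0015 over all genes. KLF15, a factor of fasting metabolism, had 206 and 318 counts in SALL4KD and 49 and 59 in scramble, or 1.03 and 1.46 CPM against 0.250 and 0.371 CPM. Its log2 change was 2.01 with an SE of 0.36 (edgeR adjusted p = 0.00128), and it was called under every alternative that kept it. HHEX, a homeodomain factor needed for the liver bud, had 7.03 and 6.13 CPM in SALL4KD and 13.9 and 11.3 CPM in scramble, a log2 change of -0.94 with an SE of 0.22 (edgeR adjusted p = 0.0107). The HHEX call was lost without SALL4KD replicate 2 (0.0862) and without scramble replicate 1 (0.122).

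NR1H4, the bile acid receptor FXR, had 36 and 55 counts in SALL4KD and 13 and 1 in scramble, a log2 change of 2.49 with an SE of 0.72 (edgeR adjusted p = 0.0446). Its scramble libraries were unlike each other, and the call was lost without SALL4KD replicate 2 (adjusted p = 0.171) and without scramble replicate 2 (0.289). The log2 change was 1.71 without scramble replicate 2 and 4.96 without scramble replicate 1. The 4 factors of the list with the highest CPM did not pass in edgeR. CEBPG had 131.2 and 136.2 CPM in SALL4KD against 125.3 and 128.8 CPM in scramble (log2 fold change 0.07), and XBP1 had 55.1 and 72.5 against 71.0 and 78.2 CPM (-0.23). NR2F1, an orphan receptor, had 132.8 and 146.0 against 90.2 and 99.2 CPM (log2 fold change 0.56, SE 0.18; edgeR adjusted p = 0.0665). DESeq2 (adjusted p = 0.0422), edgeR with no filter (0.0384) and the replicate block (0.00221) called NR2F1. TBX3, a T-box factor of hepatoblasts, had a log2 fold change of 0.18.

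**Figure D3:**
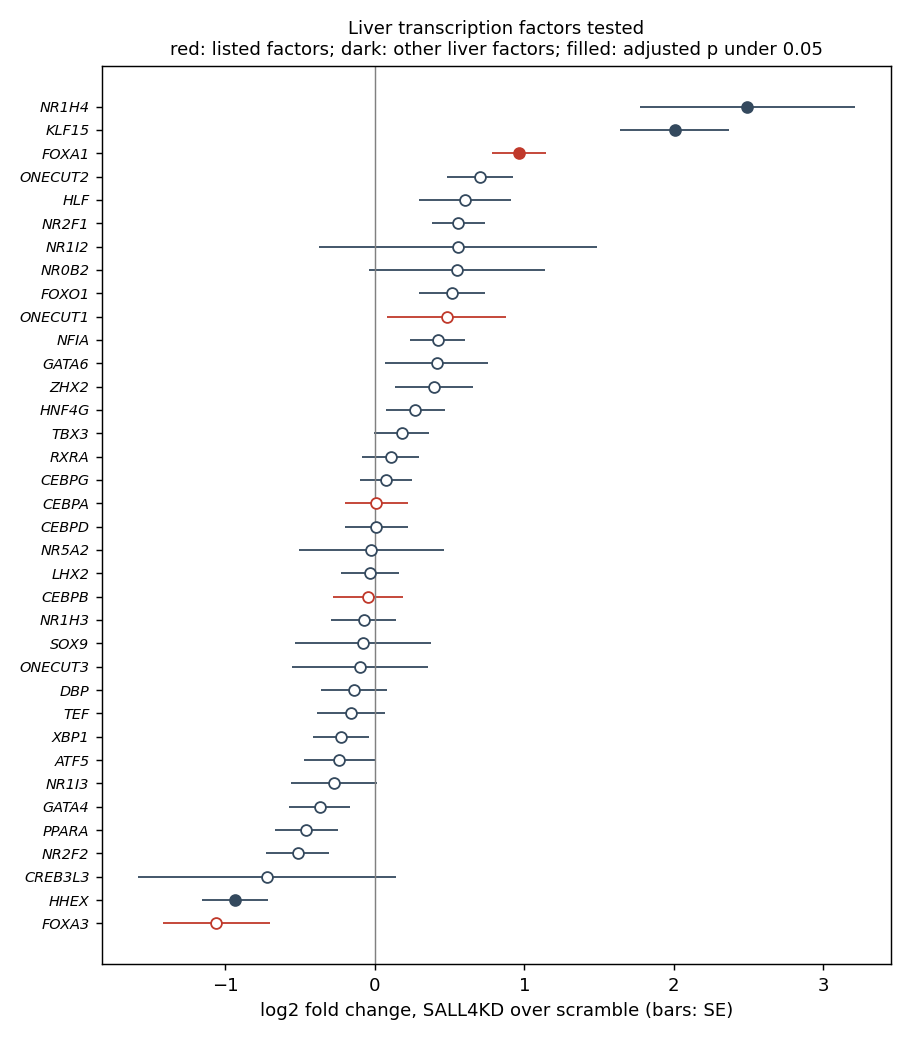
Log2 fold changes (x axis, SALL4KD over scramble, bars SE) are plotted for the 5 tested members (red) and the other liver factors shown (dark), ordered by size, with filled points for an adjusted p under 0.05. FOXA1, KLF15 and NR1H4 are filled on the right and HHEX on the left, with FOXA3 the lowest value but open.

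The genes that these factors switch on in hepatocytes mostly had low CPM, and the share of all genes at such levels was not counted. Of 43 such genes 37 had a mean under 1 CPM in both groups, 18 had at most 10 counts in every library, and 22 were tested. None was called by edgeR in either direction, against 5.55% of all genes, and 1 had an unadjusted p under 0.05, against 18.1%. DESeq2 called 1, against 9.84% of all genes. A count of 0 among 22 genes lies near the edgeR share and is not a result about these genes. The median log2 fold change of the 22 was -0.17, beside 0.0015 over all genes. Albumin (ALB) had 145 and 140 counts in SALL4KD (replicates 1 and 2), and scramble (replicates 1 and 2) had 142 and 66. APOB, the protein of very low density lipoproteins, had 4, 0, 0 and 4 counts in the same order, transthyretin (TTR) 0, 2, 1 and 1, fibrinogen FGB 0, 0, 4 and 0, and SERPINA1 2, 8, 0 and 3. APOB, TTR, FGB and SERPINA1, with 8 counts or fewer, were near absent from a line labelled as hepatocellular carcinoma. In the same order, ASGR1 had 149, 135, 125 and 163 counts, APOA1 92, 41, 44 and 52, and TF 19, 22, 1 and 11. Detection thus differed between hepatocyte markers.

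The hepatocyte gene with the highest CPM was TDO2, the tryptophan dioxygenase, at 36.6 and 25.9 CPM in SALL4KD and 42.0 and 21.3 CPM in scramble, where the replicates of each group lay further apart than the group means. ASS1, an enzyme of the urea cycle, had 5.32 and 8.70 CPM in SALL4KD and 10.6 and 15.5 CPM in scramble, a log2 change of -0.89 with an SE of 0.26 (edgeR adjusted p = 0.0516), and was the gene that DESeq2 called (0.0179). The lipoprotein genes APOE and APOM did not pass, with log2 fold changes of -0.28 and 0.27.

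**Figure D4:**
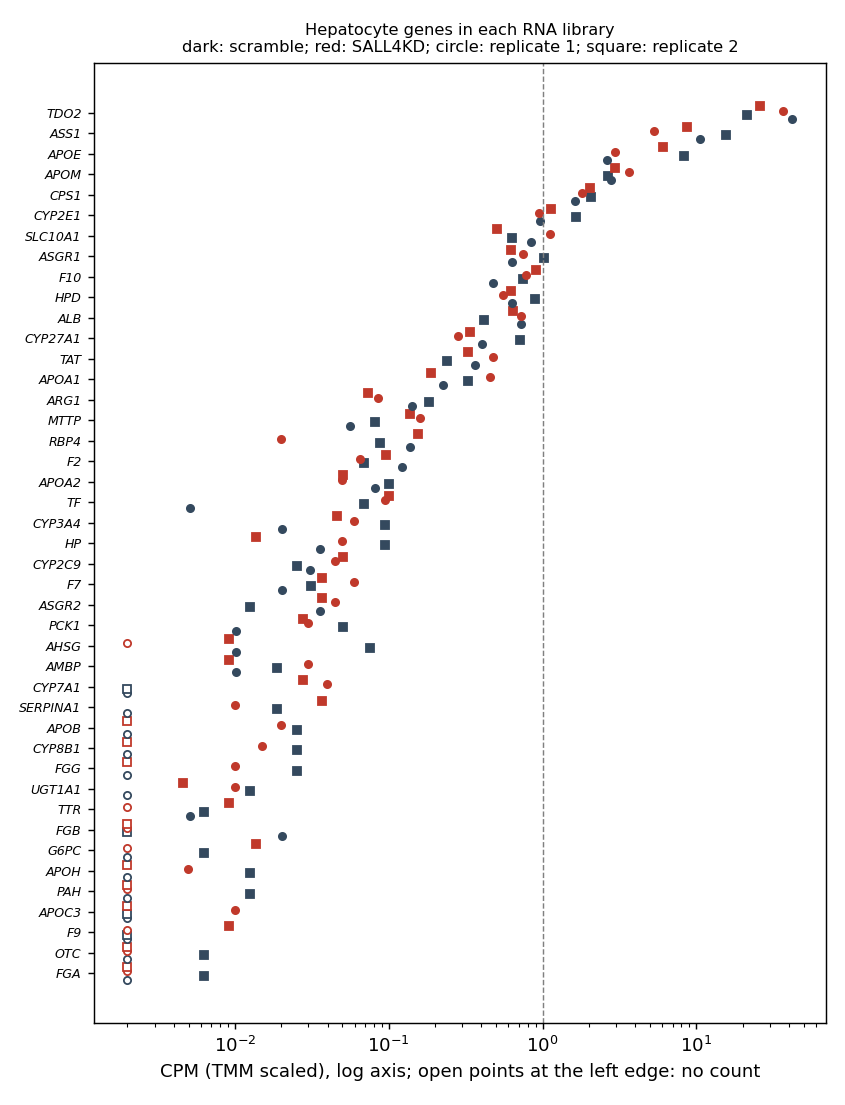
CPM (log axis) of 43 hepatocyte genes is plotted for each library, with dark points for scramble, red for SALL4KD, circles for replicate 1 and squares for replicate 2, and open points at the left edge where a library had no count. 37 genes lie left of the dashed line at 1 CPM by their means in both groups, and red and dark points intermix for most of them.

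Markers of fetal and other cell types give the setting of these values. In the oncofetal and progenitor list IGF2BP3, an RNA-binding protein of fetal tissue, rose (log2 change 0.88, edgeR adjusted p = 0.00518, and 0.0694 without scramble replicate 2), SALL4 fell, and the other 6 tested did not pass. Of these 6, IGF2BP1 had 167.5 to 253.9 CPM per library, LIN28B 65.8 to 103.9 and EPCAM 19.7 to 32.4. GPC3 had means of 16.2 CPM in SALL4KD and 18.3 CPM in scramble. AFP, the fetal albumin, was not tested and had 4 to 10 counts per library. These were 5 and 4 in SALL4KD (replicates 1 and 2) and 10 and 8 in scramble. In the combined matrix AFP had 15, 13, 5 and 5 counts in the same order, so the tables differ in its direction at these low counts. The 5 biliary markers summed to 0.244 to 0.390 CPM in scramble and 0.271 to 0.328 CPM in SALL4KD, with KRT7 and KRT19 at 5 counts or fewer and SOX9 at 42 to 51 counts. The 5 leukocyte markers summed to 0.415 to 0.474 CPM in scramble and 0.555 to 0.562 CPM in SALL4KD, with CD3E at 0 counts in every library and PTPRC at 47 to 100 counts. The deposited tables differ for CD68, which had 20, 8, 17 and 3 counts here but 1012, 907, 1091 and 711 in the combined matrix (SALL4KD replicates 1 and 2, then scramble), so a low level of this marker rests on the choice of table. The 5 fibroblast markers summed to 949.2 to 1034.0 CPM in scramble and 955.7 to 1032.1 CPM in SALL4KD, most of it the collagen gene COL3A1, and none was called by edgeR (unadjusted p under 0.05 for 3, and DESeq2 called LUM). That sum is carried by COL3A1 and says little of the other 4. Each of the 5 fibroblast markers separated the groups. COL1A2 and COL3A1 had higher values in SALL4KD, and PDGFRB (log2 change -1.16), LUM (-0.74) and DCN (-0.49) had lower values. Of all tested genes, 24.2% were separated in the higher and 22.9% in the lower direction, and 18.1% had an unadjusted p under 0.05. With no filter edgeR also called LUM, and with the replicate block LUM, DCN and PDGFRB. The part of these fibroblast and leukocyte marker differences in the FOXA1 result was not tested.

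The CUT&RUN data were then read at the same genes. The deposited list of SALL4 regions common to the 3 libraries holds 11201 regions, and none lay over any of the 8 factors, while 13.9% of 20037 protein-coding genes had such a region over their span. At that background share about 1 of 8 genes would hold one, so the count of 0 is not a result about these factors. With spans extended by 3 kb the count was 1 of 8 (background 15.2%), and the gene was CEBPB. Within 100 kb, 6 of 8 factors had a common region, against 36.5% of all protein-coding genes. That share differs by chromosome, at 82.1% on chromosome 14 (FOXA1), 60.1% on chromosome 20 (HNF4A, FOXA2 and CEBPB), 46.9% on chromosome 1 (PROX1), 36.3% on chromosome 15 (ONECUT1) and 24.5% on chromosome 19 (FOXA3 and CEBPA).

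The region nearest to CEBPB, chr20:50193903-50195306, began 1213 bp beyond the end of the gene and outside any RefSeq gene. It held 1, 2 and 1 peaks of libraries 1, 2 and 3, and no base of it was covered in all 3. Peak heights are the authors' values and come in whole steps of 2.88, 2.64 and 3.30 signal units in libraries 1, 2 and 3. The highest peaks of this region reached 3, 3 and 4 steps, near the library medians of 4, 3 and 3 steps. The nearest common region was 25834 bp from HNF4A (inside LINC01620), 26135 bp from FOXA1, 35106 bp from PROX1 (inside PROX1-AS1), 42306 bp from FOXA2, 93761 bp from FOXA3, 121941 bp from CEBPA and 314893 bp from ONECUT1. In none of these 8 regions did the 3 libraries share a covered base.

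Single-library peaks were frequent over the longer genes and rarely coincided. Library 1 had a peak over 4 of the 8 factors (46.0% of protein-coding genes), library 2 over 5 (77.6%) and library 3 over 5 (72.7%), and only HNF4A and PROX1 had a peak of every library. The 74 peaks over the 8 spans came 4 from library 1, 42 from library 2 and 28 from library 3, and the highest reached 5 steps. PROX1, the second longest span, held 1, 22 and 9 peaks, HNF4A 1, 8 and 5, ONECUT1 0, 6 and 9, and FOXA2 none. A peak of library 2 met a peak of library 3 at 1 place in FOXA1 and 1 in ONECUT1, and no other pair of libraries met over any of the 8 spans.

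FOXA1 stood in a stretch dense in peaks, which against its own chromosome was clearest in library 2. Its span of 5698 bp held 0, 5 and 4 peaks of libraries 1, 2 and 3, and with 3 kb added on both sides 1, 12 and 9. In a window of 200 kb around its middle library 2 had 89 peaks, against a median of 19 over all protein-coding genes and 37 over those of chromosome 14. Libraries 1 and 3 had 12 and 45 peaks there, with medians of 10 and 33 on chromosome 14. This density was not particular to FOXA1. In such a window PROX1 had 3, 54 and 36 peaks of libraries 1, 2 and 3, with medians of 5, 27 and 18 on chromosome 1. In library 2, 96.2% of genes on chromosome 14 had fewer peaks than FOXA1, and 95.1% of those on chromosome 1 had fewer than PROX1. The library 1 peak nearest to the FOXA1 start, chr14:37596087-37596205, lay upstream with 5 steps, in a stretch where libraries 2 and 3 had 1 and 2 peaks that did not overlap it. Merging peak centres within 1000 bp, a rule added after the data had been seen, would join these 4 peaks into 1 region 727 bp before the gene (chr14:37595976-37596919), which the deposited common list does not hold.

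At CEBPA the library 3 peak shown in capitals above, chr19:33302563-33302740, reached 6 steps, a height that 1.76% of library 3 peaks attain. It covered 178 of the 250 bases before the CEBPA start. Libraries 1 and 2 had no peak there, and a peak of library 3 covered 10.4% of all promoter windows. Library 1 had its own peak inside CEBPA, chr19:33300379-33300478, with 4 steps. Next to FOXA3 the highest library 1 peak, chr19:45861099-45861130, reached 10 steps (1.95% of library 1 peaks). It was narrower than a CUT&RUN read of 42 bases. Libraries 2 and 3 had no peak at that place.

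**Figure D5:**
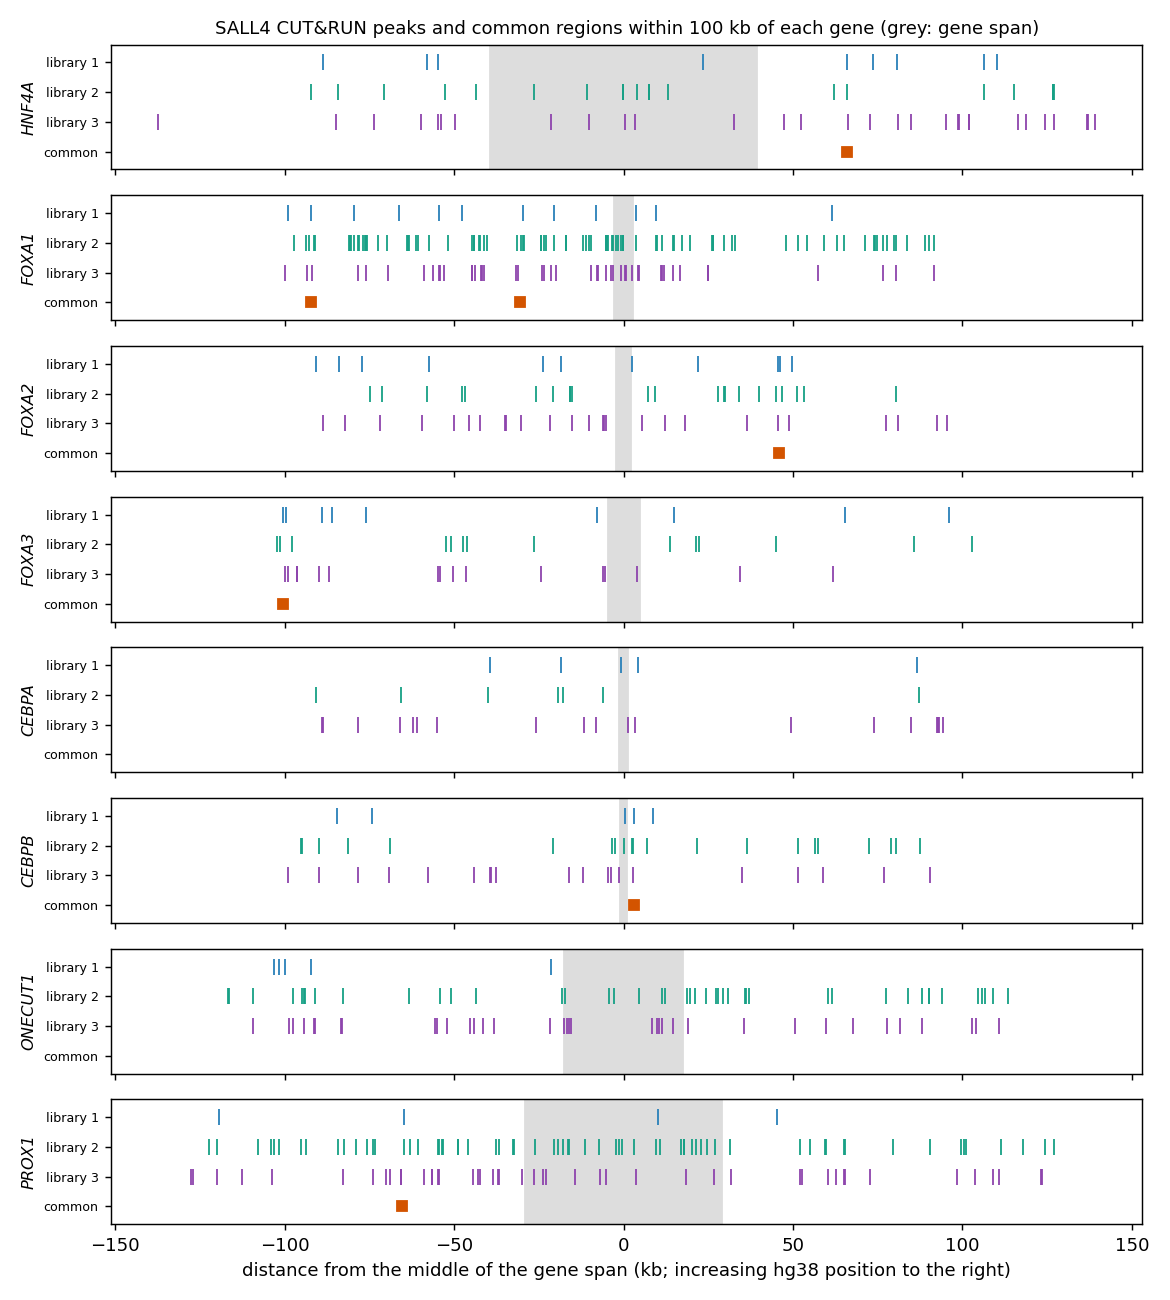
For each gene, ticks mark the peaks of CUT&RUN libraries 1 to 3 and squares the deposited common regions within 100 kb of the span (grey), by distance in kb from the middle of the gene. Ticks are dense around FOXA1 and PROX1 and sparse around CEBPA, and no square lies in a grey span, the nearest being beside CEBPB.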

How the data were processed

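The 8 factors and all gene lists were chosen with earlier results of these data known. Trim Galore 0.4.5, STAR, featureCounts, DESeq2, BWA 0.7.17-r1188, SEACR 1.1 and HOMER 4.10 are among the tools, and hg38 and sacCer3 the builds, that the submitters' processing notes list, without roles. Annotation, strand setting and coverage scaling are not stated. For RNA the authors deposited unnormalized counts by gene symbol (a table for each library) and a combined count matrix. A further table of theirs, deposited with the columns of a gene-wise comparison, gives log2 fold changes and expression, p-values and test scores. The deposited peak files hold the total and highest signal per peak, per library, in whole steps; the common list holds merged regions, per the file headers.

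Low counts were removed by filterByExpr. After TMM scaling, edgeR 4.0.16 in R 4.3.3 fitted group as the only term (quasi-likelihood, robust), with p-values adjusted by Benjamini-Hochberg over all 25807 genes (threshold 0.05). The SE is the absolute log2 change divided by the square root of F. The fit was also run on simulated counts with a common dispersion for all genes, and the outcome is not reported here. DESeq2 1.42.0, other scaling, filters, the combined matrix, a replicate block and leaving out each library were alternatives. A region lay over a gene where it overlapped the RefSeq span (GRCh38.p14) by at least 1 bp. Genes named are the members, the neighbouring noncoding genes, and the called and most abundant genes of each list. Markers of cell types and the 3 factors nearest to FOXA1 are also named. HNF4G was added after its values were seen. IgG libraries and protein sequences were not used here, and 1 gene of the other liver factors is counted in its list but not reported here.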

Additional observations from a re-analysis of the deposited data

How the results depend on the processing

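SALL4 and FOXA1 kept direction and call under all 10 alternatives (FOXA1 adjusted p 1.85e-10 to 0.0151). The number of genes called, 1433, was 654 with the 5 CPM filter, and 810 to 1191 without 1 library. Leaving out 1 library gave log2 fold changes of -1.87 to -1.54 for SALL4, 0.90 to 1.02 for FOXA1, -1.31 to -0.85 for FOXA3, 0.26 to 0.74 for ONECUT1, -0.24 to 0.22 for CEBPA and -0.44 to 0.26 for CEBPB. CEBPA turned negative without SALL4KD replicate 2 (-0.24), and CEBPB positive without SALL4KD replicate 1 (0.26) and without scramble replicate 2 (0.23); the cause was not tested. Of the other liver factors, 3 called in the reported fit, 5 were called with no filter, 1 with the 5 CPM filter (fewer genes tested) and 1 to 3 without 1 library. Of the hepatocyte genes, 1 (ASS1) was called with RLE scaling, DESeq2 and no filter, and 0 to 1 without 1 library. Factors with a common region over the span were 0 as reported, 1 with 3 kb or 10 kb added and 6 with 100 kb. With rebuilt regions and 3 kb, a rule added after seeing the data, the count was 2. Leaving out 1 CUT&RUN library re-examined only deposited regions already over a span. There were none, so that alternative could only give 0 and says nothing on the dependence on a library.

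The labels do not say that replicate numbers mark a shared culture or day. Deviations of the 2 replicate 1 libraries correlated at 0.22 over genes. With the replicate number as a block, 4921 genes were called, 2 of the 8 factors (FOXA3 at -1.07, adjusted p = 0.00557), 10 other liver factors and 1 hepatocyte gene, and CEBPA was at -0.0062. Counts of 16 or fewer leave HNF4A, FOXA2 and PROX1 beyond any comparison at this depth.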

Other observations

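The highest peaks within 100 kb of the 8 spans were 3 peaks of 10 steps. Of these, 1 was the library 1 peak beside FOXA3. The other 2 lay at the same place near HNF4A, -54.6 kb from the middle of the gene and outside its span, in libraries 1 and 3, where library 2 had no peak and the common list no region. Peaks of 10 or more steps make up 1.95% of library 1 and 0.126% of library 3. These 3 peaks were narrow, each no wider than about 1 CUT&RUN read of 42 bases, and IgG signal there was not examined. They were chosen after their values were seen.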
